A study of Homo sapiens with 3 samples.

Results

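The 7 genes described here encode subunits of the GABA-A receptor: GABRA2, GABRA3, GABRA4, GABRA5, GABRB1, GABRB2 and GABRG3. Around them, every accessible interval was taken whose summit lay inside the gene or no more than 50 kb beyond its outer ends. Intervals caught by 2 genes were counted once, which gave 42 distinct regions with 100 summits out of 65234 regions in the whole list (0.0644%). GABRA2, GABRA4 and GABRB1 lie on chromosome 4, GABRB2 on chromosome 5, GABRA5 and GABRG3 on chromosome 15 and GABRA3 on the X chromosome. The regions come from ATAC-seq, in which the Tn5 transposase cuts and tags DNA that is not packed away. The cells were neurons from KOLF2.1J-hNGN2, a line of the established human induced pluripotent stem cell line KOLF2.1J, collected at day 14 of neuronal differentiation with 100000 cells per preparation. NGN2 is a proneural transcription factor used to drive stem cells to a neuronal, mostly excitatory, fate. The 3 biological replicates form 1 group with no second treatment or genotype, and the authors merged them into 1 list, so no value per replicate was analysed and no standard deviation or test between conditions can be given. The series sought regulatory elements of MAPT in chromatin data, and the receptor genes lie outside that question.

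GABA-A receptors are chloride channels, built as rings of subunits, that open when GABA binds and carry most fast inhibition in the brain. GABA binds between alpha and beta subunits, and a gamma subunit next to an alpha subunit forms the benzodiazepine site and helps to hold the receptor at synapses. Many of the subunit genes sit side by side in clusters that combine alpha, beta and gamma genes, and excitatory neurons carry the receptors because they receive inhibitory input. Alpha subunits set much of where a receptor is used: GABRA2 and GABRA3 encode synaptic forms, and GABRA4 and GABRA5 encode forms that are largely extrasynaptic.

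Strength is given in 2 ways. Fold enrichment is the authors' ratio of tags at a summit to a background value. Tags are the sequenced tags at a summit over all samples combined, recovered from that ratio and the deposited p-value. The background comes from the same recovery and was the same value, 29.2, for many of the regions below. Tags ranged from 58 to 3783 over the whole list with a median of 189, and a region takes the values of its strongest summit.

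An accessible start was found for 7 of the 7 genes, meaning a summit within 1 kb of the RefSeq start or, for GABRA3 and GABRA5, of either outer end of the gene. The background was high: the same held for 69.8% of 20037 protein-coding genes, and for 85.8% of the 4208 whose length lies between those of the shortest and the longest of the 7. The number alone is therefore close to what genes of this size show. Neuronal identity was checked in the same way: 8 of 8 neuronal marker genes had an accessible start, against 0 of 6 markers of other tissues and 1 of 4 pluripotency markers, LIN28A. Of 5 genes listed for glutamatergic neurons, 2 were open at the start (SLC17A6 and GRIN1), and SLC17A7, NEUROD2 and NEUROD6 were not. GAD1, GAD2 and SLC32A1, which define GABAergic neurons, were all 3 accessible at the start.

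Sequence at the starts is shown for 4 of the 5 genes whose accessible summit falls at a RefSeq start, because both beta subunit genes carry the same uncommon word there. The fifth, GABRA4, holds none of the words in its window and is shown further on by the bases between it and GABRB1. The sequences are from RefSeq (GRCh38.p14), run 5′ to 3′ on the strand of the gene and cover the 250 bases before the start. Capitals mark matches on either strand to any of 8 words searched.
GABRB1 (chr4:47031317-47031566, plus strand): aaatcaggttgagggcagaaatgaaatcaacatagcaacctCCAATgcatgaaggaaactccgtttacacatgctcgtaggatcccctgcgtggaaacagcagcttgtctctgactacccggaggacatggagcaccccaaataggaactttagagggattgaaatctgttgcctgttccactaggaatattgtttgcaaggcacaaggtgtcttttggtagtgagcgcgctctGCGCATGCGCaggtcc
GABRB2 (chr5:161546726-161546975, minus strand): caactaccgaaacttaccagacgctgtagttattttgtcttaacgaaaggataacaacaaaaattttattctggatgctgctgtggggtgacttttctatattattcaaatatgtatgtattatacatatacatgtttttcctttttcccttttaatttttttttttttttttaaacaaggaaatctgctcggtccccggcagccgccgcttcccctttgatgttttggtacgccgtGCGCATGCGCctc
GABRG3 (chr15:26970931-26971180, plus strand): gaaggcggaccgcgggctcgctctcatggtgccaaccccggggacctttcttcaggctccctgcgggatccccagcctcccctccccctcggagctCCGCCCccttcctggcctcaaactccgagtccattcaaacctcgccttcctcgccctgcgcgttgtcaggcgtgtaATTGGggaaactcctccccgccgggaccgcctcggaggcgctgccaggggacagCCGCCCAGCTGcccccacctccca
GABRA2, outermost of its 3 starts (chr4:46390301-46390550, minus strand): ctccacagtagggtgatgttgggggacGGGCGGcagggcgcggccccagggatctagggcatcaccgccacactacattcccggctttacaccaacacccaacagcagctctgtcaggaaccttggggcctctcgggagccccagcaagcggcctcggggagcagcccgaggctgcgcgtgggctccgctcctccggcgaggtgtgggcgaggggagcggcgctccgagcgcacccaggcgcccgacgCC
GABRA2, middle start, with its highest summit (chr4:46389410-46389659, minus strand): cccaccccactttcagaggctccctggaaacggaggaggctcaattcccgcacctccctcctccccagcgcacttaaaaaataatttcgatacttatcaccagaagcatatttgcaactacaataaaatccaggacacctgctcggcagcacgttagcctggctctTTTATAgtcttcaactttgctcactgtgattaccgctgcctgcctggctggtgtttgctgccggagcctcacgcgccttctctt

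The 10-letter core of the motif known for the transcription factor NRF1, a palindrome shown as the last capitals of the GABRB1 and GABRB2 lines, lies 16 to 7 bases before the start of GABRB1 and 13 to 4 bases before that of GABRB2. It occurs in 1.24% of 35116 RefSeq promoter windows of the same length (250 bases before to 50 after the start). The summit nearest to the GABRB1 start fell on the first base of the word, and the nearest GABRB2 summit lay 15 bp beyond the first base of its copy. Over all promoters in the table, 90.8% of the 435 windows with the word had a summit within 1 kb, against 55.2% of those without it. These are matches of letters, and binding was not measured.

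GGGCGG, the GC box, was found 2 times in the 300-base window of GABRG3 and 2 times in that of the outermost GABRA2 start, and it is present in 45.0% of all windows. CCAAT was found once each in GABRB1 and GABRG3 (34.6% of windows). CAGCTG, an E-box, was found in GABRG3 and in both inner GABRA2 starts (17.9% of windows), where it overlaps a GC box in GABRG3, and TATAAA was found at the middle GABRA2 start (11.5%). CAGATG, TGACGTCA and GCGTGGGCG are in 14.7%, 1.85% and 0.795% of windows and were found in none of the 7 windows of these 5 genes. GC content was 71.7% for GABRG3, 71.3% for the outermost GABRA2 start and 66.0% for GABRA4, against a median of 58.7% over all windows. It was 48.7% for GABRB1 and 39.0% for GABRB2, and the latter stood at percentile 9.92 of all windows.

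**Figure D1:**
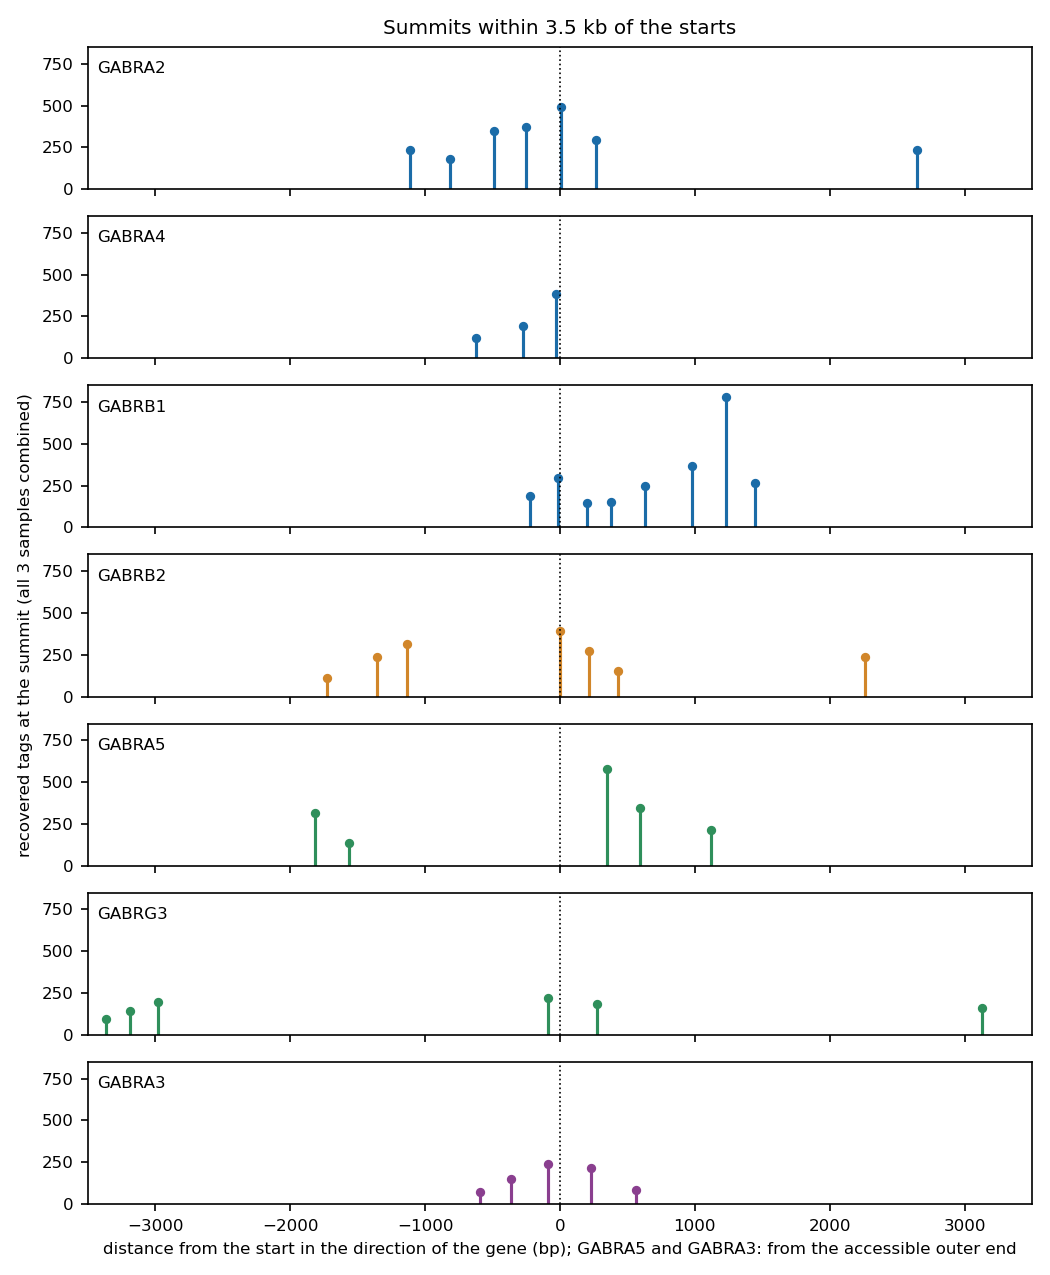
Recovered tags (vertical axis) at every summit near the start of each gene, against distance from the start in bp along the gene (horizontal axis); the dotted line is the start, or the accessible outer end for GABRA5 and GABRA3, and GABRA2 is drawn from the middle of its 3 starts. GABRB1 has its highest summit, 780 tags, 1230 bp inside the gene, whereas in each of the other genes the summit nearest to the dotted line is the highest of the start region.

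Among the alpha subunit genes, GABRA2 (gene ID 2555, chr4:46243548-46390300, minus strand) had the widest open start. Its region, chr4:46388951-46390963, was 2013 bp wide with 6 summits and stretched over all 3 RefSeq starts of the gene. The highest summit lay 6 bp inside the middle start, with 492 tags (exact Poisson 95% interval 449 to 537) and a fold enrichment of 6.70. The summits at the outermost start were lower, with 183 tags 78 bp inside it and 237 tags 222 bp before it. Width placed the region at percentile 94.2 of all 15706 regions at starts, while its fold enrichment stood at percentile 32.1.

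GABRA4 (gene ID 2557, chr4:46918900-46993581, minus strand) starts back to back with GABRB1, with 65 bases between their outer ends. Those bases are shown because the strongest summit of the shared region falls among them, with CpG sites in capitals.
GABRA4 to GABRB1 (chr4:46993582-46993646, in the direction of GABRA4): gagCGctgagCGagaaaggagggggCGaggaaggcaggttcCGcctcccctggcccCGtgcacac
The region, chr4:46992988-46994486, had its highest summit 29 bp before the GABRA4 start, with 385 tags (interval 347 to 425) and a fold enrichment of 8.04. Its other summits had 192 and 121 tags, both on the GABRB1 side. Since the outer end of GABRB1 lies within it, the region cannot be assigned to 1 of the genes. The RefSeq start of GABRB1 used here is 38.0 kb further on, and it has a region of its own.

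GABRA5 (gene ID 2558, chr15:26866719-26949208) was open at its lower-coordinate end, in chr15:26866701-26868171. The highest of 3 summits lay 345 bp inside the gene, with 580 tags (interval 534 to 629) and a fold enrichment of 7.82. This was the highest tag count at a start among the 4 alpha genes, although its interval overlaps that of GABRA2. GABRA3 (gene ID 2556, chrX:152166234-152451315) was open at its higher-coordinate end, in chrX:152450451-152452038. That region held 5 summits, and the strongest, 87 bp outside the gene, had 242 tags (interval 212 to 274) and a fold enrichment of 7.78. Neither gene has a start in the promoter table, so distances for these 2 genes are from the outer end.

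Among the beta subunit genes, GABRB1 (gene ID 2560, chr4:46993647-47426447, plus strand) had the strongest start region of the 7 genes. The region chr4:47031147-47033316 was 2170 bp wide with 8 summits, percentile 96.7 of start regions by width and 99.3 by number of summits. At the start itself, 16 bp before it, the summit had 298 tags (interval 265 to 334) and a fold enrichment of 4.43. The highest summit lay 1230 bp inside the gene, with 780 tags (interval 726 to 837) and a fold enrichment of 11.4. The intervals of these 2 summits do not overlap, and both cover counting error only.

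GABRB2 (gene ID 2561, chr5:161288436-161548404, minus strand) encodes a beta subunit common in adult brain receptors. Its start region, chr5:161546044-161546853, was the narrowest of the 7 at 810 bp. The highest summit lay 2 bp inside the start, with 390 tags (interval 352 to 431) and a fold enrichment of 5.53. A separate region, chr5:161547456-161548522, covered the outer end of the gene, 1.14 kb before that start by its highest summit, with 316 tags (interval 282 to 353).

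The gamma gene GABRG3 (gene ID 2567, chr15:26971181-27541984, plus strand) had the weakest open start. In chr15:26970753-26971862 a summit 92 bp before the start had 218 tags (interval 190 to 249) and a fold enrichment of 4.16, at percentile 12.3 of start regions by fold enrichment. The second summit, 272 bp inside, had 184 tags (interval 158 to 213), and the intervals overlap.

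Set side by side, 6 of the 7 start regions lay below the median of all start regions by fold enrichment (9.15) and the same number by tags (763), GABRB1 being the exception on both. Their medians were 7.78 and 390 tags. For the 5 genes with a RefSeq start, the nearest summit lay 2 to 92 bp from it, hence 5 of 5 within 100 bp. Among 11462 protein-coding genes with an accessible RefSeq start the share was 76.9%, so most such genes show this. The nearest start was taken for genes with several, such as GABRA2, and the count of 5 was not tested.

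A further region close to the open start recurred in several genes, a feature chosen after the values had been seen. A second region within 5 kb of the start was present for 4 of the 7 genes (GABRA2, GABRA5, GABRB2 and GABRG3), against 20.2% of 13976 protein-coding genes with an accessible start. In GABRA2, GABRB2 and GABRG3 a narrow region lay inside the gene, 2.27, 2.26 and 3.13 kb from the start. For GABRA2 the innermost of its 3 starts was used, and its other starts lie further away. The narrow regions were 222, 271 and 378 bp wide, at percentiles 0.737, 2.91 and 7.02 of all distal regions by width. Their fold enrichments were 3.29, 3.21 and 3.56. Their tags were 236, 234 and 162, at percentiles 60.9, 60.4 and 34.9 of distal regions. Before the start, a region lay at 1.14 kb in GABRB2 (316 tags, over its outer end), at 1.82 kb in GABRA5 (316 tags) and at 2.98 kb in GABRG3 (196 tags). The fold enrichments of these regions were 4.53, 4.42 and 4.15. Recovered backgrounds were 69.0, 70.7 and 46.4 for them and 70.9, 72.2 and 44.8 for the narrow regions. The median over all distal regions was 36.1. GABRA3, GABRA4 and GABRB1 had none within that distance.

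**Figure D2:**
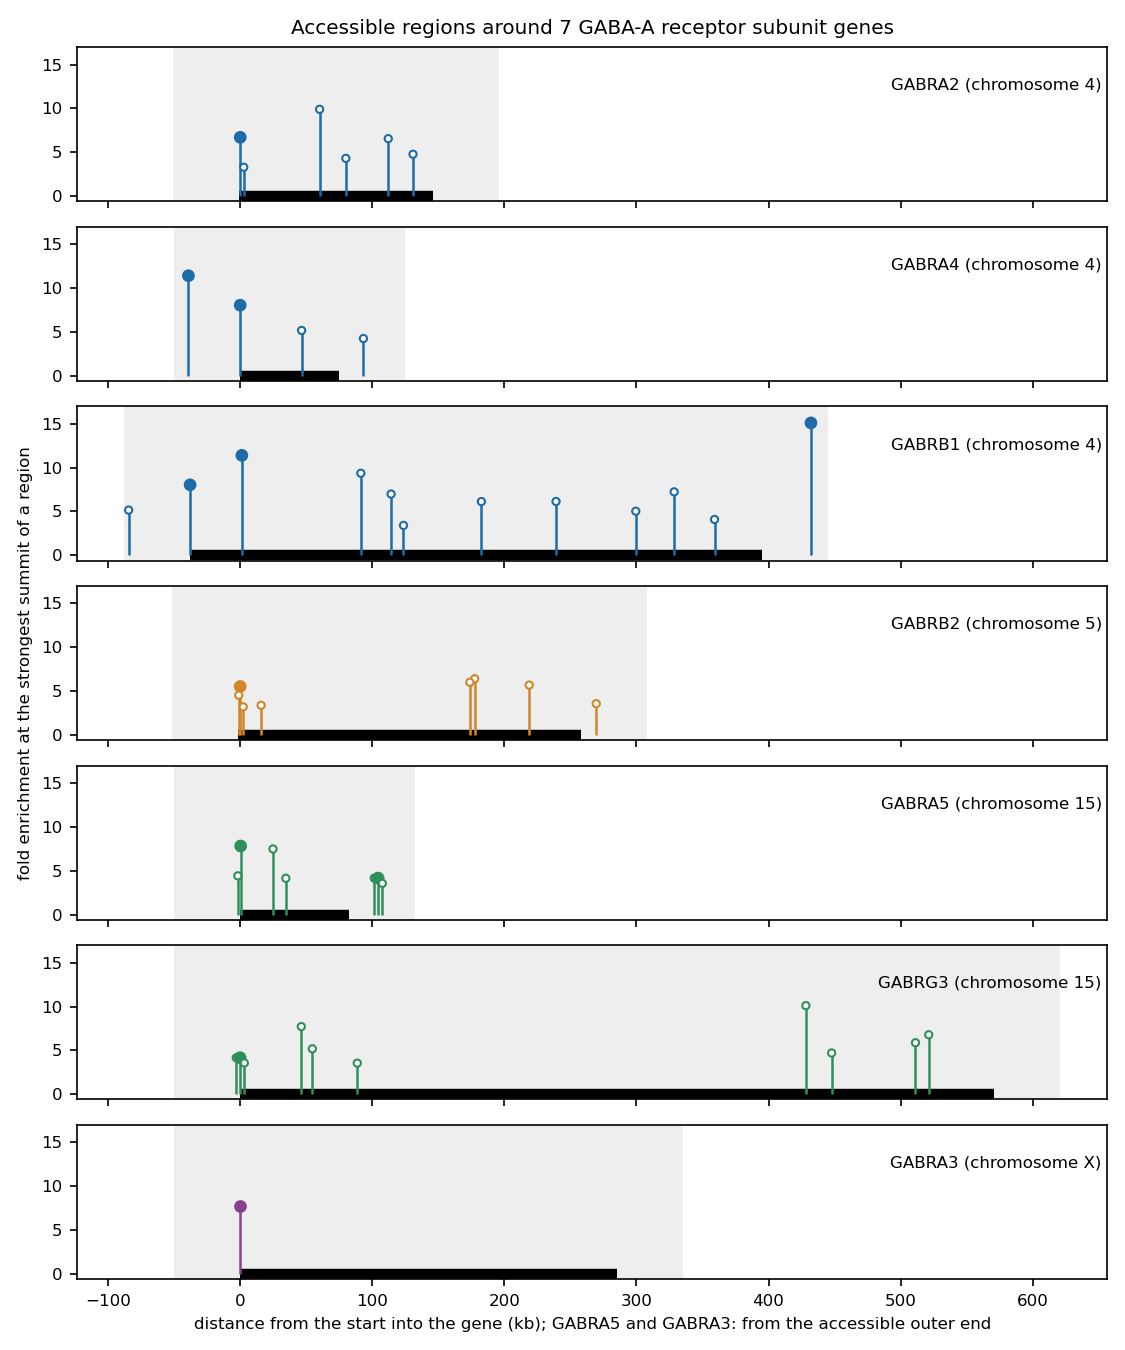
Fold enrichment at the strongest summit (vertical axis) of each region around the 7 genes, against distance from the start into the gene in kb (horizontal axis); the black bar is the gene, grey the counted window, filled points regions at a gene start and open points distal regions. GABRB1 has regions along its whole length, GABRG3 has a stretch of 339 kb without any, and GABRA3 has 1 region at its end.

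The clusters on chromosomes 4, 5 and 15 were then compared. Their windows, with overlaps joined, covered 854, 360 and 775 kb and held 19, 8 and 14 regions. This gives 22.2 regions per Mb on chromosome 4, 22.2 on chromosome 5 and 18.1 on chromosome 15. Their order changed with the window: in the same order the values were 24.5, 26.7 and 19.6 with 20 kb beyond the genes, and 20.9, 17.4 and 18.3 with 100 kb. The whole chromosomes, from the first to the last annotated gene, had 19.4, 21.9 and 19.3 per Mb, so each cluster was near the density of its chromosome. Windows of 50 kb around protein-coding genes had medians of 24.7, 29.4 and 28.5 per Mb on these chromosomes, above the value of each cluster in 50 kb windows. Those medians cover genes of every length. Beside genes of length within 25%, window counts stood at percentiles 46.6 (GABRA2), 38.4 (GABRA4), 53.1 (GABRB1), 44.1 (GABRB2), 77.4 (GABRA5) and 23.9 (GABRG3). Each cluster is a single locus in pooled data, so these differences have no error from replicates and were not tested.

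GABRA3 stood apart, with 1 region in a window of 385 kb, or 2.60 per Mb. The X chromosome as a whole had fewer regions, 10.4 per Mb, and the median of its gene windows was 17.2 per Mb. The count of 1 placed GABRA3 at percentile 0.964 among the windows of 674 genes whose length is within 25% of its own, where the median is 9. The part of the low density of the X chromosome in this was not tested.

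Regions inside the genes spread differently along them. GABRB1, which is 433 kb long, held 10 regions, against a median of 9 in 404 genes of similar length (percentile 56.2). One of them is the region shared with GABRA4. From the RefSeq start to the far end the other 9 lay 1.23, 91.3, 114, 124, 183, 239, 299, 329 and 359 kb inside, and the longest stretch without a region was 89.1 kb, which is short for such genes (percentile 22.0). GABRG3, at 571 kb the longest of the 7, held 9 regions (median 11 in 266 similar genes, percentile 30.3). They fell into a part within 88.6 kb of the start and a part from 428 to 521 kb, with 339 kb between them (chr15:27059923-27398607) that held none. That stretch was at percentile 95.5 of the longest stretches in similar genes, whose median is 134 kb.

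GABRB2 (260 kb) held 7 regions, against a median of 6 (percentile 61.5). Of these, 3 lay 174 to 219 kb from the start and 4 within 15.8 kb of it, separated by 157 kb without a region (percentile 82.4). GABRA2 (147 kb) held 6 regions against a median of 3, percentile 83.4 of 1431 similar genes and the highest such percentile of the 7. GABRA5 (82.5 kb) held 3 against a median of 2 (percentile 74.8). GABRA4 (74.7 kb) held 1 against 2 (percentile 26.7), or percentile 52.8 when its start region, whose 3 summits lie just outside the gene, was admitted by overlap. GABRA3 (285 kb) held 1, a summit of its end region, against a median of 6 (percentile 3.34), and 99.7% of the gene was a single stretch without a region. Among 28 genes of similar length on the X chromosome the median was 3.5 and GABRA3 stood at percentile 17.9.

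**Figure D3:**
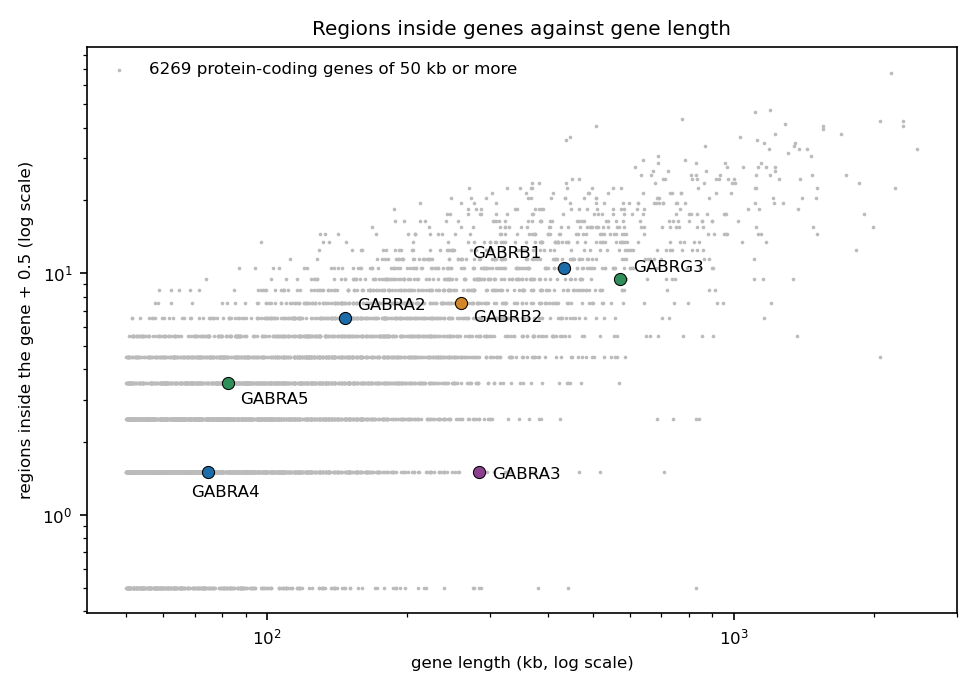
Number of regions with a summit inside each gene plus 0.5 (vertical axis, log scale) against gene length in kb (horizontal axis, log scale), for 6269 protein-coding genes of 50 kb or more in grey and the 7 receptor genes in colour. GABRA2, with 6 regions, lies high for its length and GABRA3, with 1, lies low.

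Of the 42 regions, 34 were distal, with no summit within 1 kb of a gene start as used here, and 30 of these lay inside 1 of the 7 genes. The region over the outer end of GABRB2 counts as distal, because the start used for that gene lies further inside. Whether the distal regions fall in exons or introns was not analysed here. Their fold enrichment ranged from 3.21 to 10.1 with a median of 5.09, and the median of all 49528 distal regions was also 5.09. By tags the medians were 205 and 199. The highest possible score of 1000 was given to 30 of the 42 regions, against 73.7% in the whole list, with 14 of 19 in the cluster on chromosome 4, 6 of 8 on chromosome 5 and 9 of 14 on chromosome 15. In strength the distal regions of these genes were thus typical of the list.

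By fold enrichment the highest distal regions were found in GABRG3, GABRA2 and GABRB1. In GABRG3, chr15:27398608-27399947, which ends the long stretch without regions, had a fold enrichment of 10.1 and 407 tags (interval 368 to 449), percentile 93.6 of distal regions by fold enrichment. In GABRA2, chr4:46328944-46329674, 59.7 kb inside the gene from its innermost start, had 9.89 and 298 tags (interval 265 to 334). In GABRB1, chr4:47122440-47123196, 91.3 kb inside, had 9.36 and 282 tags (interval 250 to 317). Tag intervals of the GABRA2 and GABRB1 regions overlap, and both lie below that of the GABRG3 region. The recovered background was 29.2 for the GABRA2 and GABRB1 regions and 39.5 for the GABRG3 region. By tags the order differed: a region 24.8 kb inside GABRA5, chr15:26891372-26892246, came next after that of GABRG3, with 390 tags (interval 352 to 431) and a fold enrichment of 7.48. Others in GABRB2 (334, 317 and, over its outer end, 316 tags), before GABRA5 (316) and in GABRB1 (301) also exceeded the 298 tags of the GABRA2 region.

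The cluster on chromosome 15 had a second strong distal region in GABRG3, chr15:27017202-27017876, with a fold enrichment of 7.71 and 232 tags. On chromosome 5 no region of GABRB2 reached that fold enrichment. Its highest by fold enrichment were a close pair 178 and 174 kb inside the gene, chr5:161368627-161369616 (6.41, 334 tags) and chr5:161372369-161373319 (6.01, 317 tags), followed by chr5:161327582-161328278 (5.69, 171 tags). By tags the pair was at percentiles 78.4 and 76.2 of distal regions, while its fold enrichment was at 69.1 and 64.1. The recovered backgrounds of the pair were 51.2 and 51.9, against a median of 36.1 over all distal regions.

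**Figure D4:**
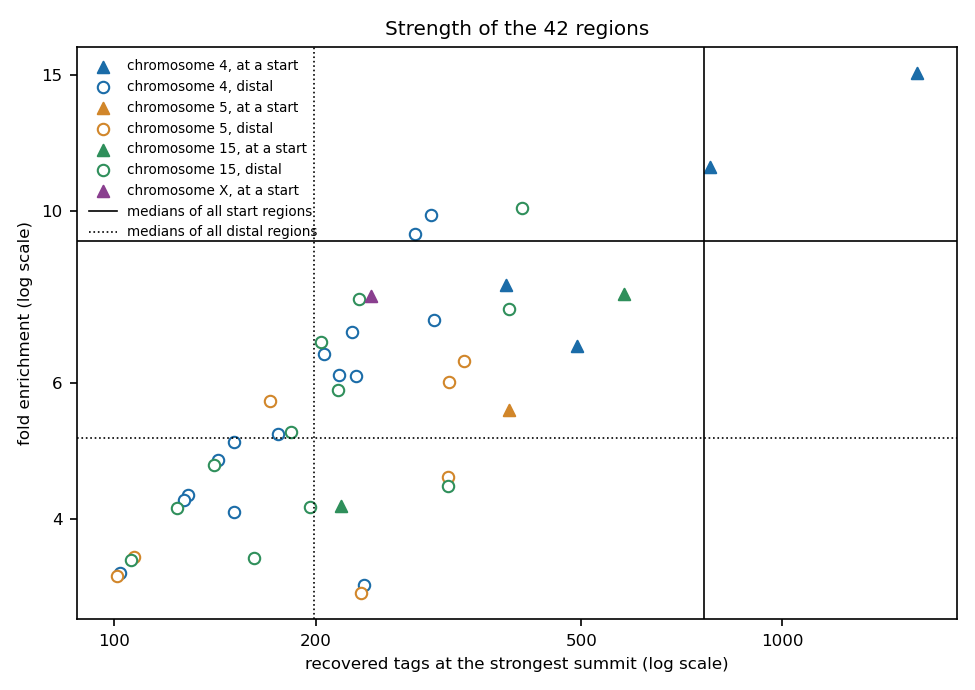
Fold enrichment (vertical axis, log scale) against recovered tags (horizontal axis, log scale) at the strongest summit of each of the 42 regions, with triangles for regions at a gene start, circles for distal regions and lines at the medians of all start regions (9.15 and 763 tags) and all distal regions (5.09 and 199 tags). The triangle at 1590 tags is the start of COMMD8, which falls into the GABRB1 window, and the distal regions scatter about the distal medians.

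Shared regions tie neighbouring genes together in this count. Windows of GABRA4 and GABRB1 shared 3 regions, which were both start regions and chr4:46946968-46947568 in GABRA4 (fold enrichment 5.16, 176 tags). Windows of GABRA5 and GABRG3 also shared 3, which were the GABRG3 start, chr15:26967711-26968343 before it (4.15) and chr15:26974188-26974565 inside GABRG3 (3.56). The region of highest fold enrichment in any of the windows, chr4:47462884-47464115 at 15.1 with 1590 tags (interval 1513 to 1670), belongs to no receptor gene. It lies at the start of COMMD8 and of a lncRNA gene beside it, 37.2 kb beyond the far end of GABRB1.

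A list of 9 other genes for GABA-A receptor subunits held 3 with open starts. The list does not cover every subunit gene, so this share is a description of the 9 genes and is not read against the 69.8% of protein-coding genes. The 3 lie in the same clusters as genes described above. On chromosome 4 GABRG1, a gamma gene, had a start region with a fold enrichment of 9.36 and 493 tags but no other region in its window. On the X chromosome the starts of GABRE (5.91, 212 tags) and GABRQ (9.35, 378 tags) on either side of GABRA3 were open. On chromosome 5 GABRA6, a gene known for cerebellar granule cells, had its nearest summit 11252 bp from its start. The other closed genes were GABRD, GABRP and the rho subunit genes GABRR1, GABRR2 and GABRR3, which are known for the retina. GABRD had the highest number of regions in a window, 5, and the lowest, 1, was found for GABRG1 and GABRA6.

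Genes that work with the receptor mostly had open starts, to be read against the same 69.8%. Among 11 genes for scaffold and trafficking proteins 9 had an accessible start, and NLGN2 and SHISA7 had none within 1 kb. GPHN, the gene for the scaffold gephyrin, had 28 regions in its window, the highest number on the list, and a start region of 2209 tags. LHFPL4 and ZDHHC3, for proteins of receptor assembly and trafficking, had 4 regions each, the lowest. Per Mb of window the order was reversed, with 21.1 for GPHN, 25.7 for LHFPL4 and 24.9 for ZDHHC3. The median of all protein-coding genes was 31.2 per Mb. Of 6 genes for GABA synthesis, packaging, uptake and breakdown, 5 were open, with SLC6A11, a transporter known for astrocytes, closed. SLC32A1, the vesicular GABA transporter, was open with 139 tags and a fold enrichment of 2.48 and had 3 regions in its window, the lowest number, while ABAT, for GABA breakdown, had 11, the highest. Both genes for the chloride gradient were open, SLC12A2 (chloride import) with 1744 tags and SLC12A5 (chloride export) with 363 tags at the start. These lists are small, their members were not drawn at random, and their shares were not tested.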

How the data were processed

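ATAC-seq peaks of 3 replicates were deposited by the authors as 1 list, the optimal set by irreproducible discovery rate per the labels, in hg38 per the submitters' processing notes. Aligner and peak caller are not given in the sources used here. The list holds 145092 summits in 65234 distinct intervals. For each summit the authors deposited a fold enrichment (a linear ratio), −log10 p and −log10 q values and a score. The depth of each replicate is unknown.

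Tag counts were recovered from ratio and p-value: with (tags + 1) over (background + 1) as the ratio and a Poisson upper tail, whole tag counts matched every p to within 0.00079 units of −log10 p (median of the next whole number, 0.266). They ranged from 58 to 3783, median 189. Libraries were amplified without stated molecular identifiers, so exact Poisson 95% intervals cover counting error only.

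A region took the values of its summit with the highest −log10 p. Genes and starts came from RefSeq tables for GRCh38.p14: 15842 of 20037 protein-coding genes had a start, and the others were used by both outer ends. A summit lay within 1 kb for 69.8% of genes, and for 9.54% after a shift of 100 kb. Percentiles count ties as a half-rank and are descriptions. Members and lists were chosen with earlier results of these data known. Named regions were those at starts, those shared by 2 windows and the 3 of highest fold enrichment per cluster, and any other named region was chosen after its values were seen. Of the other lists, genes with the most and fewest regions and the subunit genes in the same clusters were named. Some genes of these lists are not reported here. Alternatives changed windows, thresholds, overlap, merging and the comparison genes. Python 3.11.15, numpy 2.4.6, scipy 1.17.1, pandas 2.3.3 and matplotlib 3.10.9 were used. The code was tested on simulated data, where 100% of 20000 tag counts were recovered.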

Additional observations from a re-analysis of the deposited data

How the results depend on the processing

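The count of 7 open starts held with windows of 500 bp and 2 kb, with either outer end and with a score of 1000 only, while the share of all protein-coding genes ranged from 66.9% to 72.0%. The 42 regions became 41 with 20 kb and 47 with 100 kb beyond the genes, and stayed 42 by overlap or by the strongest summit only. Regions at or above the median fold enrichment numbered 21, with 20 inside genes, or 12.9, 8.33 and 7.74 per Mb on chromosomes 4, 5 and 15. Counting every summit entry gave 100, with 82 inside genes, or 62.0, 38.9, 36.1 and 13.0 per Mb on chromosomes 4, 5, 15 and X. Chromosomes 4 and 5, both at 22.2 per Mb in the main count, were apart under both of these settings. The reason for this was not tested. With a score of 1000 only, chromosomes 4, 5 and 15 fell from 22.2, 22.2 and 18.1 to 16.4, 16.7 and 11.6 per Mb. Of the whole list, 73.7% of regions have that score, and differences between the clusters in this fall were not tested. Among genes of similar length on all chromosomes GABRA3 stayed at percentile 14.3 or lower under the alternatives run, and GABRA2 at 80.8 or higher, while among those on the X chromosome GABRA3 stood at 17.9. GABRB1 rose to 81.6 at or above the median fold enrichment and 83.5 with all entries, where GABRA2 stood at 80.8 and 82.4. GABRA4 fell to 11.0 at or above the median fold enrichment, below the 14.3 of GABRA3 there. The highest and lowest of the 7 were thus not the same under every setting. The ratio of the median fold enrichment of distal regions to that of all distal regions was 1.00, with 1.03 for tags and 0.954 for all entries. No paired analysis was possible because there is only 1 group, and the replicates appear only merged, which also leaves none to take out. Depth and the selection by irreproducible discovery rate limit which weak regions are listed. The lowest summit of the list has 58 tags, but a region takes its strongest summit, and 101 tags stood at percentile 3.34 of distal regions. A stretch without regions is therefore one without a listed region.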
